A study of Mus musculus with 45 samples.

Results

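Messenger RNA of 10 genes of the integrated stress response was followed in the livers of 45 mice, 5 in each of 9 groups. The genes were chosen by name, as the ATF4 and endoplasmic reticulum (ER) stress genes Atf3, Atf4, Atf5, Ddit3, Trib3, Asns, Chac1 and Hspa5 with the stress hepatokines Fgf21 and Gdf15, and their Ensembl identifiers were mapped to symbols. All 10 were among the 39179 genes of the count files, and all 10 were among the 17464 genes tested, which had more than 4 reads in any liver. Female C57BL/6 mice, dosed from shortly after weaning, were gavaged every 4 days with sesame oil (vehicle) or TCDD, the dioxin 2,3,7,8-tetrachlorodibenzo-p-dioxin, at 8 doses from 0.01 to 30 µg/kg in steps of about 3-fold, and livers were collected at 28 days. The sample labels describe the mice of every group, vehicle included, as ovariectomized and also carry the word daily. The study's methods mention neither, and the schedule given here is that of the methods. The labels name no transgene or deletion. The libraries came from whole liver, and in such bulk samples fewer cells of a type and less RNA per cell cannot be told apart.

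The integrated stress response is a shared route by which cells answer amino acid shortage, misfolded protein in the ER, viral RNA or heme shortage. Kinases specific to each stress phosphorylate the translation factor eIF2alpha, which lowers protein synthesis as a whole while the mRNA of the transcription factor ATF4 is translated more, so that ATF4 protein can rise without a rise of its mRNA. ATF4 and its partners then turn on genes for amino acid supply and, when stress persists, genes that promote cell death. The liver releases FGF21 and GDF15 into the blood, and both are known as hormones of nutritional and cellular stress that act on feeding and energy use. TCDD binds the aryl hydrocarbon receptor (AhR), which then binds DNA together with ARNT and induces genes such as Cyp1a1.

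The 300 bases around each gene start, from 250 before to 50 after it in RefSeq on GRCm38.p6, were searched on both strands for 4 sets of letters. The 6 windows shown are those that held either stress element searched, the C/EBP-ATF response element TGATGNAA, which ATF4 dimers are known to bind, or the ER stress response element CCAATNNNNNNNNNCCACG. Capitals mark these elements and the AhR/ARNT core GCGTG, written as CACGC where the match lies on the other strand. Each sequence runs 5′ to 3′ along its own gene.
Fgf21 (chr7:45615441-45615740, minus strand): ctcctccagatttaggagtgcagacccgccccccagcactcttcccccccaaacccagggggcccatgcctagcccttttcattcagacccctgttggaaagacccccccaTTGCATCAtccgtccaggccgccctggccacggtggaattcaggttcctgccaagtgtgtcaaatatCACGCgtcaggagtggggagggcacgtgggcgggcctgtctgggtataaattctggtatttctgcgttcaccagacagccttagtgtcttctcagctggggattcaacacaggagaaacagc
Asns (chr6:7693160-7693459, minus strand): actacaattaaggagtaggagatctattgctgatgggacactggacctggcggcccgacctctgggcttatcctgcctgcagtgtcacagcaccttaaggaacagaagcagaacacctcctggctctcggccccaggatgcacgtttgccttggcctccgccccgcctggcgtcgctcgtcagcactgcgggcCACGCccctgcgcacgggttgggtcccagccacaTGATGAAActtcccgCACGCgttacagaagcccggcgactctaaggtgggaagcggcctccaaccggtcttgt
Atf3 (chr1:191183284-191183583, minus strand): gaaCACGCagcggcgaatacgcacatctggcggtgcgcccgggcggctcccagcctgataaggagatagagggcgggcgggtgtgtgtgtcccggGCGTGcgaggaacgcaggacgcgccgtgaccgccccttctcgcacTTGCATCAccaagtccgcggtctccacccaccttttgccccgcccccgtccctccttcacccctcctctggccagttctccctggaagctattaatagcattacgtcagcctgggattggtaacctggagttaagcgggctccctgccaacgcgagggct
Trib3 (chr2:152344011-152344310, minus strand): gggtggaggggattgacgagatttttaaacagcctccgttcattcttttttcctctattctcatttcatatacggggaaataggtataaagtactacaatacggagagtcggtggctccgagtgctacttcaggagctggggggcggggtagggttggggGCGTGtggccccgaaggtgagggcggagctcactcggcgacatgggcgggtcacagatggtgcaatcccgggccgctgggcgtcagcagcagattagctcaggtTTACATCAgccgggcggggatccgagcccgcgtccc
Chac1 (chr2:119350992-119351291, plus strand): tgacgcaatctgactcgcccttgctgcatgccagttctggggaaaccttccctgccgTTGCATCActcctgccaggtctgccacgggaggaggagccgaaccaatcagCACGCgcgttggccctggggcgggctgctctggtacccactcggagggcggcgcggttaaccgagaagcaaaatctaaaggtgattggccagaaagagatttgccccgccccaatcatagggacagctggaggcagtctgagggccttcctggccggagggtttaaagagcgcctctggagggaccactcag
Hspa5 (chr2:34771840-34772139, plus strand): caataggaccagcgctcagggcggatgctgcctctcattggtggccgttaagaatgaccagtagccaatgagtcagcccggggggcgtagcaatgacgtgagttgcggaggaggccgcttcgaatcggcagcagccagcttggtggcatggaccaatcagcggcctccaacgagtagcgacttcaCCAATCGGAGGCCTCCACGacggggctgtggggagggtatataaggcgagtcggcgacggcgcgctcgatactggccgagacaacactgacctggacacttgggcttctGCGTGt
The C/EBP-ATF element was present in the windows of 5 of the 10 genes, against 3.97% of all 32851 windows of this length. It began 139 bases before the start of Fgf21, 23 before that of Asns, 110 before that of Atf3 and 193 before that of Chac1, and 15 bases after that of Trib3. The ER stress element was found only in Hspa5 among the 10 genes, 65 bases before the start, against 0.119% of all windows. The AhR/ARNT core was found in 8 of the 10 genes and in 32.4% of all windows. The cyclic AMP response element TGACGTCA was in none of the 10 and in 1.79% of all windows. Atf5 and Gdf15 each have a pair of RefSeq starts, and none of their windows held any of the 4 motifs. The genes were chosen by name as ATF4 and ER stress genes, so their shares are no independent result. Shares of the 10 count genes, while those of all windows count windows. These matches are descriptions of letters and not of binding. RefSeq places the Atf3 start inside the longer Ensembl gene.

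Expression was calculated as CPM, the reads of a gene relative to the library's total after trimmed mean of M-values (TMM) scaling, and all levels below are CPM unless they are stated per kilobase. Between 11767284 and 56509899 reads were counted on genes per liver, with a median of 17225047. Reads per liver are given for the lowest genes. Fold changes are log2 values from edgeR's quasi-likelihood test of the 45 livers in 1 fit, with the standard error (SE), and p-values were adjusted by the Benjamini-Hochberg method over the 17464 genes of each comparison. A gene was called when its adjusted p was under 0.05. The exact permutation test of 5 livers against 5 is two-sided and cannot give a p below 0.007937. Cyp1a1, the usual marker of AhR activation, rose from 7.50 ± 6.32 CPM in vehicle livers to 7627 ± 1186 CPM at 30 µg/kg (mean ± SD, n = 5). Livers 1 of the 3 µg/kg group and 5 of the 0.01 µg/kg group stood apart by summed macrophage and Kupffer cell markers (707 and 1136 CPM, against 177 to 284 in vehicle livers), and without both the same genes were called. Livers carry a number within their group that is used here as a name. Some members nevertheless followed this number across groups, as given with the pairs below.

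Fgf21 was called higher at 10 and 30 µg/kg, and Asns and Atf3 at 30 µg/kg only. Gdf15 differed among the 9 groups without a call at any dose, and the other 6 genes were called in no comparison. At 30 µg/kg 3 of the 10 genes were called, all higher, against 29.6% of all genes called in either direction and 15.5% called higher. The share of the 10 genes was therefore close to that of all genes, and their median log2 fold change was -0.11, beside 0.02 over all genes. All 3 passed a fold change of 2, as did 11.4% of all genes. At 10 µg/kg 1 of the 10 was called (Fgf21, higher), against 15.9% of all genes and 8.47% called higher. No member was called by edgeR at 3 µg/kg (7.54% of all genes called), 1 µg/kg (1.76%), 0.3 µg/kg (0.464%), 0.1 µg/kg (0.0229%), 0.03 µg/kg (0.0573%) or 0.01 µg/kg (0%). Unadjusted p was under 0.05 for Atf3, Atf4 and Atf5 at 3 µg/kg, for Atf4 at 1 µg/kg, for Asns and Hspa5 at 0.01 µg/kg, and for 0 members at the 3 doses between 0.01 and 1 µg/kg. Over all 9 groups the F test called 4 members (Fgf21, Asns, Atf3 and Gdf15), against 28.8% of all genes.

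**Figure D1:**
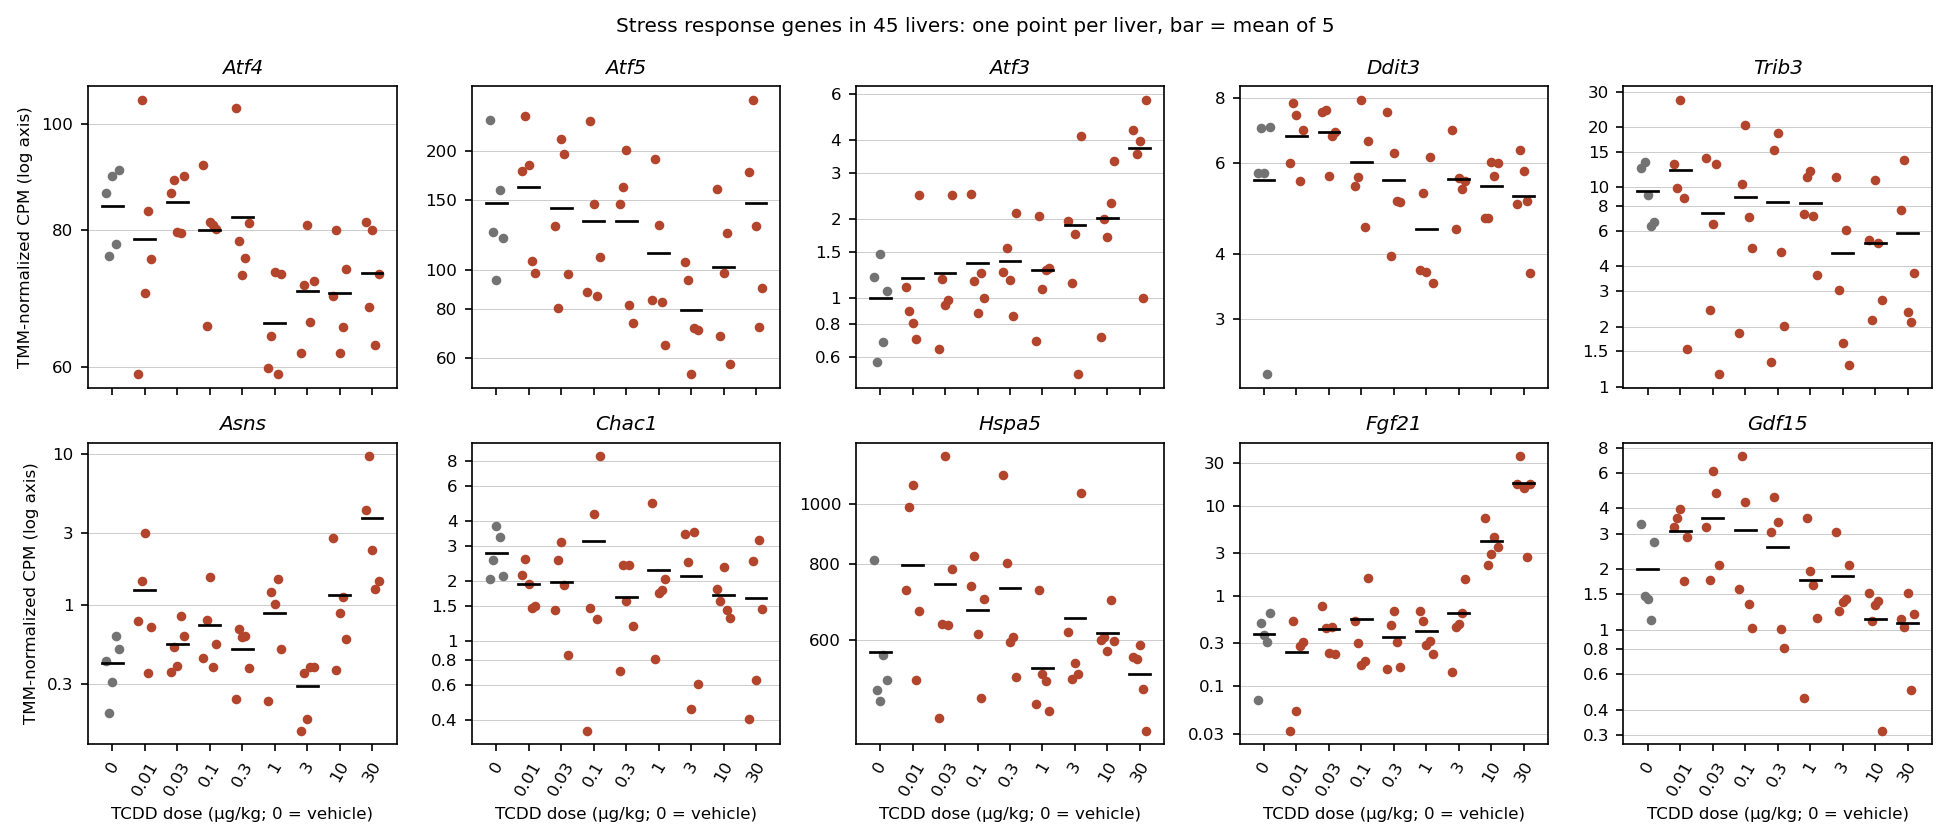
TMM-scaled CPM on a log axis for each of the 10 genes in every liver, by group (vehicle and 8 doses of TCDD in µg/kg, 5 livers each, 1 point per liver, bar at the group mean). Fgf21 reached 2.21 to 7.43 CPM at 10 µg/kg and 2.73 to 35.5 CPM at 30 µg/kg, above all vehicle livers (0.0708 to 0.657 CPM), while Atf4 stayed between 59.1 and 105.2 CPM in all 45 livers.

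Fgf21 encodes the hepatokine fibroblast growth factor 21 and lies on chromosome 7 (45613886 to 45615490, minus strand, GRCm38). In vehicle livers 1 to 5 its level was 0.0708, 0.509, 0.370, 0.309 and 0.657 CPM, a mean of 0.383 ± 0.220 CPM from 1 to 13 reads per liver. It stayed low at the 5 doses from 0.01 to 1 µg/kg, where group means were 0.243 to 0.556 CPM and only liver 5 at 0.1 µg/kg exceeded 1 CPM, with 1.57 CPM. At 3 µg/kg the livers held 0.146, 0.455, 0.491, 0.644 and 1.54 CPM (0.656 ± 0.528), and 4 of the 5 lay within the vehicle range. The rise began above that dose. The 10 µg/kg livers held 7.43, 2.21, 2.98, 4.52 and 3.47 CPM (4.12 ± 2.03 CPM, 42 to 229 reads), and those of the 30 µg/kg group 17.8, 35.5, 16.1, 2.73 and 17.6 CPM (17.9 ± 11.7 CPM, 49 to 621 reads). All 5 livers at both doses lay above every vehicle liver, as was so for 8.1% of all genes at 10 µg/kg and 10.3% at 30 µg/kg. Liver 4 of the higher dose lay within the range of the 10 µg/kg livers, and the other 4 lay above it.

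The log2 fold change of Fgf21 against vehicle was 3.38 (SE 0.58, adjusted p = 3.53e-05) at 10 µg/kg, a 10.4-fold rise, and 5.48 (SE 0.58, adjusted p = 5.80e-10) at 30 µg/kg, a 44.5-fold rise. Both exact permutation tests gave p = 0.007937, the smallest possible. Between neighbouring doses Fgf21 was the only member called, and only over the highest 2 steps. It rose 6.00-fold from 3 to 10 µg/kg (log2 2.59, SE 0.51, adjusted p = 0.00259), a step at which 0.784% of all genes were called. It rose again 4.29-fold from 10 to 30 µg/kg (log2 2.10, SE 0.44, adjusted p = 0.00849), where 0.613% of all genes were called. Over the 5 lower steps edgeR called 0 members, with an unadjusted p under 0.05 for Asns at 2 steps and for Atf4 at 1, and 0, 0.0115, 0.0458, 0.115 and 0.178% of all genes in order of dose. Without liver 2 of the 30 µg/kg group, the highest of the 45, the second step had a log2 value of 1.70 and was not called (adjusted p = 0.0894). No other leave-out lost either step. Both doses stayed called against vehicle with each liver left out, with log2 fold changes of 5.07 (without that liver) to 5.79 at 30 µg/kg and 3.03 to 3.68 at 10 µg/kg.

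Asns encodes asparagine synthetase, a classical ATF4 target that makes asparagine from aspartate, and lies on chromosome 6 (7675169 to 7693254, minus strand). It had the lowest level per kilobase of the 10 genes. Vehicle livers held 0.425, 0.191, 0.308, 0.619 and 0.505 CPM (0.410 ± 0.167 CPM, 3 to 10 reads). At 0.01 µg/kg the values were 0.779, 1.43, 3.00, 0.351 and 0.7098 CPM, with 4 of the 5 livers above every vehicle liver, and this difference did not pass the test (log2 1.56, SE 0.59, adjusted p = 0.368). At 3 µg/kg the values returned to 0.146, 0.352, 0.175, 0.387 and 0.386 CPM, all inside or below the vehicle range. At 1 µg/kg the mean was 0.888 CPM, and 3 of the 5 livers lay above every vehicle liver. The highest group mean was at 30 µg/kg, followed by 0.01 µg/kg (1.25 CPM) and 10 µg/kg. The level was 2.79, 0.369, 0.887, 1.13 and 0.597 CPM at 10 µg/kg (1.16 ± 0.959 CPM), where 3 of the 5 livers exceeded all vehicle livers. At 30 µg/kg it was 4.28, 9.67, 2.30, 1.28 and 1.44 CPM (3.80 ± 3.50 CPM, 18 to 169 reads), with no overlap with vehicle.

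The log2 fold change of Asns at 30 µg/kg was 3.19 (SE 0.56, 95% interval 2.06 to 4.31, adjusted p = 2.10e-05), a 9.11-fold rise, and the exact permutation test gave its smallest p, 0.007937. The rise was called in all 19 alternatives and leave-outs at this dose, and its log2 value was 2.50 without liver 2 of the group, the highest, and 3.02 to 3.39 with each other liver left out. The difference at 10 µg/kg had a log2 value of 1.52 (SE 0.58, adjusted p = 0.0691), which missed the threshold. Without liver 2 of the 10 µg/kg group, the lowest of the 5, it was 1.73 and passed (adjusted p = 0.0380), and without liver 1, the highest, it was 0.83 (adjusted p = 0.410). It passed in 1 of the 10 leave-outs. The steps from 3 to 10 µg/kg (log2 1.97, adjusted p = 0.107) and from 10 to 30 µg/kg (log2 1.67, adjusted p = 0.107) were not called.

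Atf3, a stress-inducible transcription factor that ATF4 is known to induce, lies on chromosome 1 (191170296 to 191218039, minus strand). Its vehicle values were 1.20, 0.572, 1.48, 0.681 and 1.06 CPM (0.999 ± 0.374 CPM). Group means lay between 1.19 and 1.39 CPM from 0.01 to 1 µg/kg. At 3 µg/kg the livers held 1.97, 1.14, 1.75, 0.516 and 4.15 CPM (1.91 ± 1.38), which ran from below to above the vehicle range. The 10 µg/kg livers held 0.714, 2.003, 1.71, 2.31 and 3.33 CPM (2.01 ± 0.950), and the 30 µg/kg livers 4.37, 3.55, 3.96, 1.00 and 5.69 CPM (3.72 ± 1.72). In the latter 4 of the 5 livers lay above all vehicle livers, and liver 4 was within the vehicle range. The log2 fold change at that dose was 1.88 (SE 0.44, 95% interval 0.98 to 2.78, adjusted p = 0.0011), a 3.68-fold rise, with p = 0.0317 in the exact permutation test. It ranged from 1.68 to 2.11 with each liver left out and stayed called. The differences at 10 µg/kg (log2 1.01, adjusted p = 0.126) and 3 µg/kg (log2 0.95, adjusted p = 0.212) were not called. The F test over the 9 groups passed (adjusted p = 0.00839) but was lost without liver 5 of the 30 µg/kg group (adjusted p = 0.0552).

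Liver 4 of the 30 µg/kg group was the lowest of its group for 7 of the 10 genes (Fgf21, Asns, Atf3, Gdf15, Atf4, Atf5 and Trib3) and the highest for Chac1. The same liver had the lowest sum of the 10 macrophage and Kupffer cell markers, 157 CPM against 290 to 467 CPM in the other 4 livers, below the vehicle range of 177 to 284 CPM. Its 5 tested neutrophil markers summed to 1.95 CPM, against 4.33 to 6.53 CPM in the other 4 and 0.431 to 1.06 CPM in vehicle livers. Sums of the 6 AhR marker genes were high in all 5 livers of the group (23120 to 29960 CPM, vehicle 979 to 1274 CPM), this liver included. Of the marker lists at 30 µg/kg, 2 of 10 macrophage, 2 of 5 neutrophil, 3 of 7 stellate cell, 4 of 6 endothelial, 4 of 4 erythroid and 2 of 7 B and T cell markers were called higher, beside 15.5% of all genes. Called lower were 5 of 8 hepatocyte markers and 1 of 4 tested pancreatic acinar markers, beside 14.1% of all genes. The hepatocyte sum was 105298 to 157283 CPM at 30 µg/kg and 115666 to 151849 CPM in vehicle livers. The stellate sum was 460 to 591 CPM, above the vehicle range of 239 to 323 CPM, and the endothelial sum 151 to 249 CPM, beside 128 to 169 CPM. Erythroid markers summed to 81.8 to 170.5 CPM, against 63.5 to 79.2 CPM in vehicle livers, and B and T cell markers to 3.18 to 7.61 CPM, against 2.61 to 3.61 CPM. The part of these cell populations in the rise of Fgf21, Asns and Atf3 was not tested.

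Gdf15 encodes growth differentiation factor 15, the second stress hepatokine, and lies on chromosome 8 (70629393 to 70632456, minus strand). It was called at no dose. Vehicle livers held 3.33, 1.46, 1.42, 1.11 and 2.73 CPM (2.01 ± 0.962 CPM). The higher values were at low doses, with 3.25, 3.58, 3.96, 1.75 and 2.88 CPM at 0.01 µg/kg (3.08 ± 0.845), 3.22, 1.76, 6.13, 4.79 and 2.09 CPM at 0.03 µg/kg (3.60 ± 1.85) and 1.60, 7.24, 4.32, 1.35 and 1.02 CPM at 0.1 µg/kg (3.11 ± 2.66). Each of these 3 groups overlapped the vehicle livers. The lowest values were at the highest 2 doses, 1.53, 1.11, 1.33, 1.39 and 0.316 CPM at 10 µg/kg (1.13 ± 0.482) and 1.13, 1.03, 1.52, 0.501 and 1.20 CPM at 30 µg/kg (1.08 ± 0.370). These groups overlapped the vehicle range as well. Against vehicle the log2 fold change at 30 µg/kg was -0.88 (SE 0.52, 95% interval -1.92 to 0.17, adjusted p = 0.209), so that the interval ends far below the rise of Fgf21. The highest and lowest group means differed 3.34-fold, and the F test over the 9 groups passed (adjusted p = 0.0340). That call was lost in 9 of 51 alternatives, with adjusted p-values up to 0.0821. These were the fit without TMM and the leave-outs of liver 3 at 0.01 µg/kg, liver 3 or 4 at 0.03 µg/kg, liver 2 or 5 at 10 µg/kg, and liver 1, 2 or 4 at 30 µg/kg.

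Atf4, the central transcription factor of the response, lies on chromosome 15 (80255184 to 80257541, plus strand) and had the narrowest span of the 10 genes. All 45 livers lay between 59.1 and 105.2 CPM, a 1.78-fold span, and the group means were within 1.29-fold. Vehicle livers held 86.5, 75.8, 89.5, 77.7 and 90.8 CPM (84.1 ± 6.88). Group means from 1 µg/kg upward were 65.8 to 73.0 CPM. The 1 µg/kg livers held 59.8, 64.02, 73.2, 59.1 and 72.9 CPM (65.8 ± 6.88), and every liver lay below every vehicle liver, as was so for 2% of all genes. This difference had a log2 value of -0.35 (SE 0.11) with an adjusted p of 0.108 and p = 0.007937 in the exact permutation test, and so was not called over all genes. The 30 µg/kg livers held 81.3, 68.1, 79.99, 62.8 and 72.9 CPM (73.0 ± 7.84) and overlapped vehicle, and their log2 fold change was -0.20 (SE 0.11, 95% interval -0.43 to 0.02, adjusted p = 0.175). The F test over the 9 groups missed the threshold (adjusted p = 0.0548) and passed under DESeq2 and with any of 14 livers left out, so that the lower levels are uncertain.

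Atf5, a close relative of Atf4 that is abundant in liver, lies on chromosome 7 (44812256 to 44816658, minus strand). Its vehicle livers held 239.3, 124.9, 94.4, 159.5 and 120.8 CPM (147.8 ± 56.2). At 3 µg/kg the values were 104.9, 94.3, 54.7, 71.7 and 70.5 CPM (79.2 ± 20.1), and 4 of the 5 lay below every vehicle liver. Livers at 30 µg/kg held 177.3, 269.2, 129.3, 72.04 and 90.4 CPM (147.6 ± 79.02), a range wider than that of the vehicle livers. The log2 fold change was -0.90 (adjusted p = 0.121) at 3 µg/kg and 0.00 (95% interval -0.72 to 0.72) at 30 µg/kg, and neither was called. Atf5 shares 82 exon bases with Il4i1 on the opposite strand, and Ddit3 shares 68 with Mars. The strand setting of the counting is not stated in the sources used here, so reads of these stretches cannot be told apart.

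Ddit3, Trib3 and Chac1 are targets downstream of ATF4 that are known markers of prolonged stress, and none was called at any dose. Ddit3 encodes CHOP, a transcription factor that promotes cell death under ER stress, and lies on chromosome 10 (127290774 to 127296288, plus strand). Vehicle livers held 5.73, 6.995, 5.73, 2.35 and 7.03 CPM. Livers at 30 µg/kg held 5.004, 6.35, 5.80, 5.07 and 3.69 CPM, all within the vehicle range. The low end of that range rested on vehicle liver 4 alone, with 5.73 to 7.03 CPM in the others. The log2 fold change of Ddit3 at 30 µg/kg was -0.10 with a 95% interval of -0.50 to 0.30. Trib3 encodes a pseudokinase that restrains ATF4 and AKT signalling, and lies on chromosome 2 (152337422 to 152344032, minus strand). Vehicle livers held 12.4, 13.4, 9.12, 6.37 and 6.67 CPM, and livers at 30 µg/kg 7.71, 13.7, 2.37, 2.12 and 3.69 CPM. It spread widely between livers of the same dose, from 1.54 to 27.3 CPM at 0.01 µg/kg, and the 30 µg/kg livers ran from below to just above the vehicle range. Its log2 fold change at 30 µg/kg was -0.69 (95% interval -2.06 to 0.67), an interval that holds changes of more than 2-fold in the lower direction. Chac1 encodes a glutathione-degrading enzyme and lies on chromosome 2 (119351229 to 119354381, plus strand). It held 2.05, 2.54, 3.76, 3.34 and 2.12 CPM in vehicle livers and 0.406, 2.52, 0.637, 3.23 and 1.44 CPM at 30 µg/kg. At that dose 3 of the 5 livers lay below all vehicle livers. The log2 fold change of Chac1 ranged from -1.22 to -0.52 with each liver left out, and in the full fit it was not called (adjusted p = 0.305).

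Hspa5 encodes BiP, the main ER chaperone and the usual readout of ER stress, and lies on chromosome 2 (34771970 to 34777547, plus strand). Vehicle livers held 811.9, 495.3, 475.9, 565.5 and 515.8 CPM (572.9 ± 137.7), and livers at 30 µg/kg 561.6, 558.1, 586.9, 497.4 and 425.4 CPM (525.9 ± 65.1). The groups overlapped, with a log2 fold change of -0.12 (95% interval -0.56 to 0.32, adjusted p = 0.718). Its highest group mean was at the lowest dose, 794.3 ± 232.1 CPM in the 0.01 µg/kg livers, and the difference from vehicle (log2 0.47) did not pass adjustment (adjusted p = 0.464). Per kilobase of exon, mean levels over the 45 livers were highest for Hspa5 (153 CPM per kb), Atf5 (64.6) and Atf4 (32.5). Trib3 (3.69 CPM per kb), Ddit3 (3.34), Fgf21 (2.93), Chac1 (1.305) and Gdf15 (1.21) followed, with Atf3 (0.779) and Asns (0.389) lowest. The means of the neighbours Trib3, Ddit3 and Fgf21 and those of Chac1 and Gdf15 lay closer together than their spread between livers, and the mean of Fgf21 came mostly from the highest 2 doses.

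**Figure D2:**
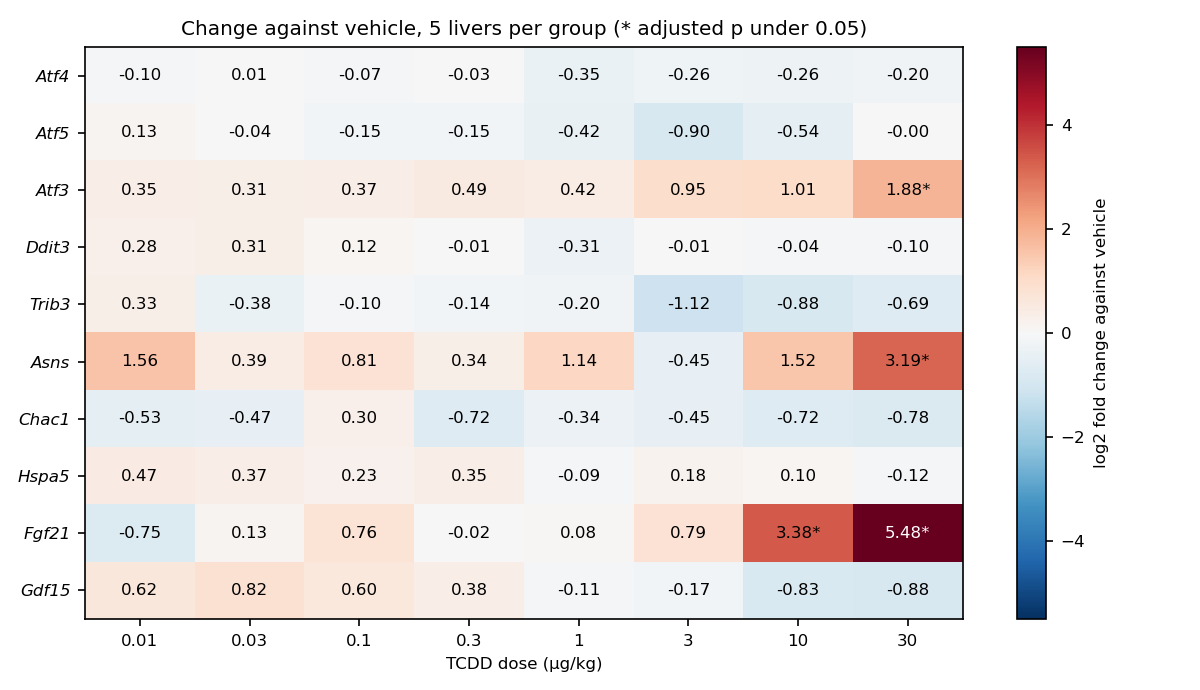
Log2 fold change against vehicle of each of the 10 genes (rows) at each of the 8 doses in µg/kg (columns), as colour and number, with an asterisk where the adjusted p from edgeR was under 0.05. Asterisks stand only at Fgf21 at 10 µg/kg (3.38) and at Fgf21 (5.48), Asns (3.19) and Atf3 (1.88) at 30 µg/kg.

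Variation between livers of the same dose was then compared between genes. Log2 CPM (prior count of 2) was centred on each group's mean, and the 45 residuals of each pair of members were correlated, with labels permuted within groups 100000 times and adjustment over the 45 pairs. By both Pearson's r and Spearman's rho 10 pairs passed, of which 8 were positive. Pairs of other genes were not correlated in this way. Whether this share is particular to the members is therefore not known. The closest pair was Atf5 and Gdf15 (r = 0.74, rho = 0.77, permutation p = 1e-05, the smallest possible, adjusted p = 0.00045), 2 genes with no call at any dose. Atf5 also varied with Trib3 (r = 0.64, rho = 0.69, permutation p = 5e-05, adjusted p = 0.0011), Asns (r = 0.59, rho = 0.56, permutation p = 0.0004, adjusted p = 0.0045) and Hspa5 (r = 0.50, rho = 0.54, permutation p = 0.0009, adjusted p = 0.0081). In livers of the same dose, those with more Atf5 mRNA thus had more of the mRNA of these 4 genes. Liver 5 lay below its group mean in every group for Atf5 (residuals of -0.13 to -0.75) and Trib3 (-0.30 to -2.42). For Atf3 it lay above the mean in every group but that of 0.1 µg/kg. The permutations within groups take no account of the liver number, and its part in these pairs was not tested.

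The other positive pairs were Hspa5 with Gdf15 (r = 0.49, rho = 0.50), Trib3 with Gdf15 (r = 0.47, rho = 0.54), Trib3 with Asns (r = 0.43, rho = 0.43) and Asns with Gdf15 (r = 0.41, rho = 0.42), with adjusted permutation p-values of 0.0091 to 0.034 for r. Chac1 was inversely related to Atf3 (r = -0.56, rho = -0.54, adjusted permutation p = 0.0037) and to Atf4 (r = -0.41, rho = -0.47, adjusted permutation p = 0.026). Without the 2 livers farthest from the median, r of the 10 pairs was 0.44 to 0.75 for the positive pairs and -0.49 and -0.52 for the inverse ones. Fgf21 passed with no other member. Its r ranged from -0.04 to 0.24, the highest with Asns (r = 0.24, rho = 0.22, adjusted permutation p = 0.49), and it was -0.04 with Gdf15 (adjusted permutation p = 0.84). Over all 45 pairs the median r was 0.10 and 29 were positive. The residuals share library depth and TMM scaling, and no pooling of libraries is given in the labels, so values within sequencing pools could not be computed.

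**Figure D3:**
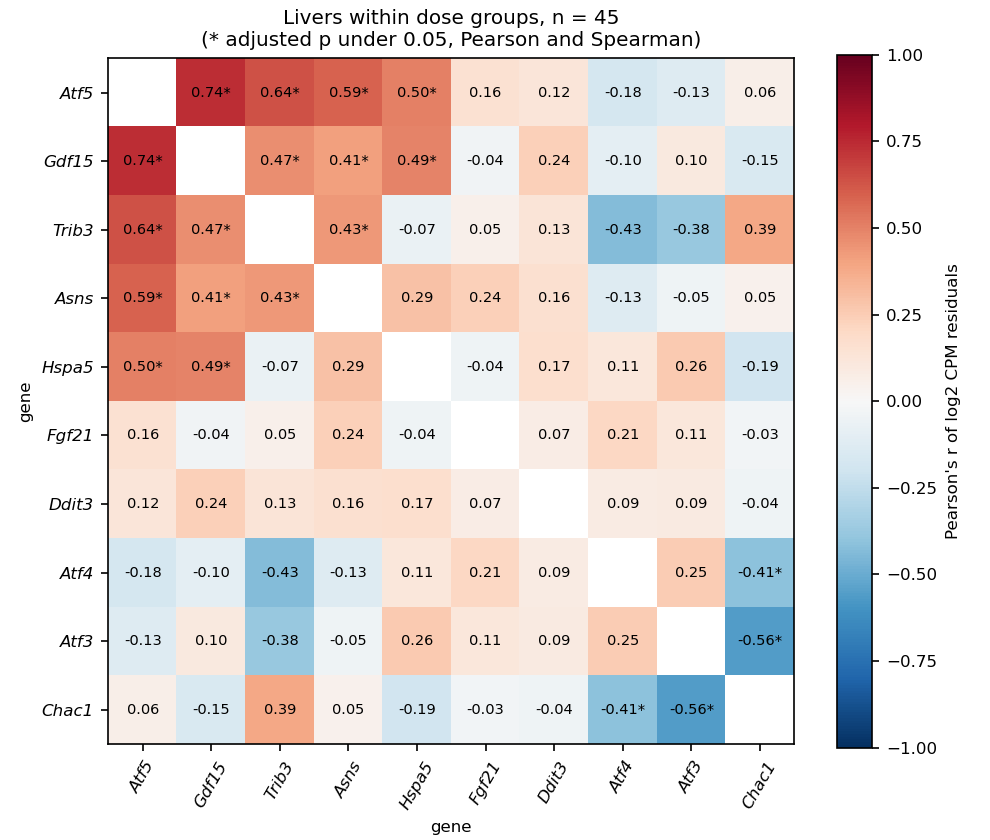
Pearson's r between the residual log2 CPM of each pair of the 10 genes within dose groups (45 livers), as colour and number in a symmetric matrix. Atf5 with Gdf15 (0.74), Trib3 (0.64) and Asns (0.59) are the strongest positive cells, Atf3 with Chac1 (-0.56) the strongest negative one, and the cells of Fgf21 lie between -0.04 and 0.24.

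**Figure D4:**
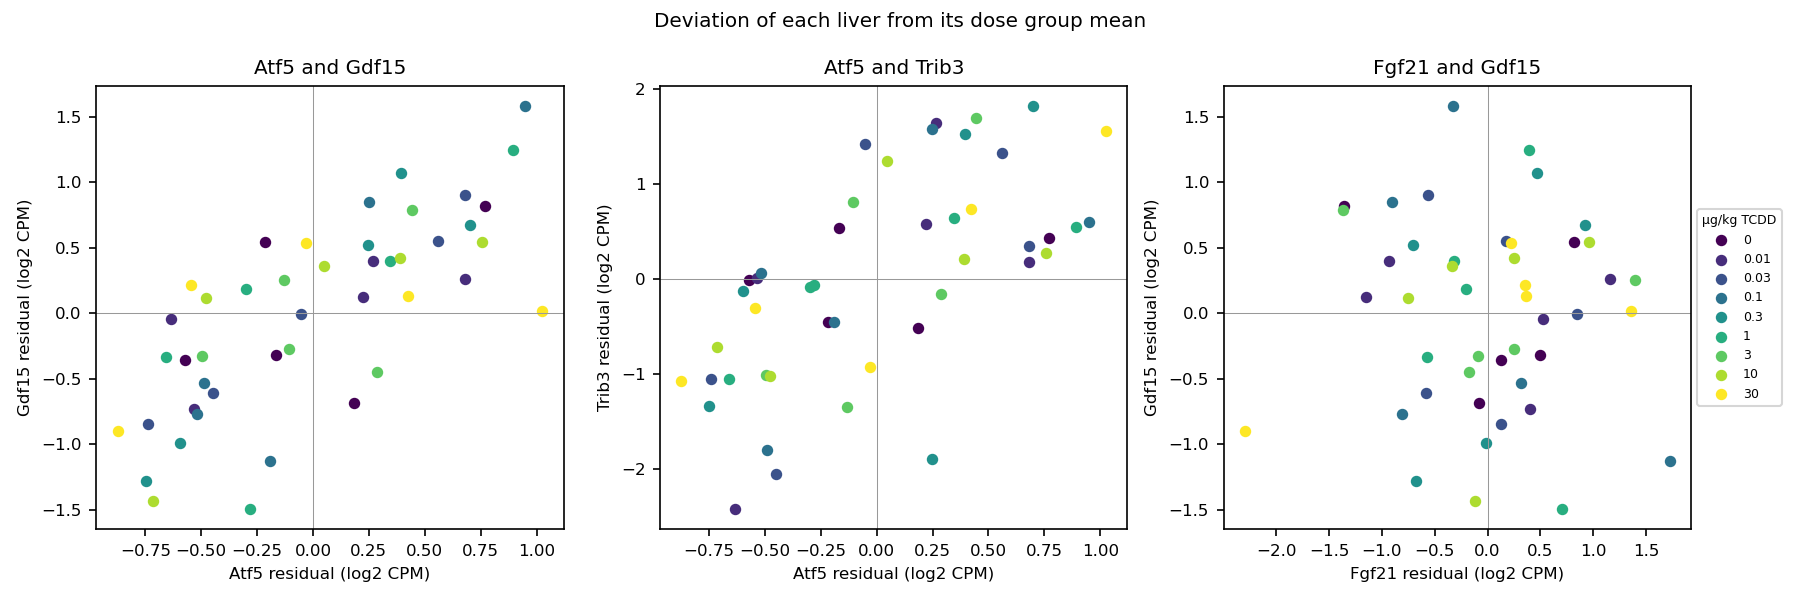
Residual log2 CPM within dose groups for 3 pairs, Atf5 against Gdf15, Atf5 against Trib3 and Fgf21 against Gdf15, 1 point per liver (n = 45). The points of the first and second pair rise together (r = 0.74 and 0.64), and those of Fgf21 and Gdf15 do not (r = -0.04).

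Other genes of the pathway were read from lists by role at 30 µg/kg. Direction counts depend on the scaling, since without TMM the median log2 fold change of all genes moved from 0.02 to 0.23 and the share of calls that were higher from 52.3% to 80.3%. Each list is therefore given under both. Under TMM the counts are to be read beside the 15.5% of all genes called higher and the 14.1% called lower. Without TMM 4996 of the 17464 genes were called higher and 1222 lower. Genes with changes under 2-fold that are named here were chosen after their values were seen. Of the 12 genes for the eIF2alpha kinases, phosphatases and eIF2B, 2 were called higher and 2 lower (6 and 0 without TMM), with a median of 0.06. They were Ppp1r15a (log2 0.50), the stress-induced regulatory subunit of the eIF2alpha phosphatase, and Eif2b2 (0.38), and on the lower side Ppp1r15b (-0.39), the constitutive subunit, and the heme-regulated kinase Eif2ak1 (-0.38). With liver 1 or 2 of the 30 µg/kg group or liver 2, 3 or 4 of the vehicle group left out, 1 was lower.

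ATF4 targets for serine and one-carbon metabolism and amino acid transport included 5 that rose. Of 14 tested of the 15 listed, 5 were called higher and 0 lower (6 and 0 without TMM), with a median of 0.20, beside 15.5% of all genes called higher. Psat1, of serine synthesis, rose from 0.593 to 3.35 CPM (log2 2.53, SE 0.50, adjusted p = 0.000108), and Mthfd2, of mitochondrial folate metabolism, from 0.570 to 2.16 CPM (log2 1.91, SE 0.39, adjusted p = 0.000196). Slc3a2, the heavy chain of amino acid transporters, rose from 38.8 to 77.1 CPM (log2 0.99, adjusted p = 1.41e-07), at a higher level than the other 4. The arginine transporter Slc7a1 rose from 0.735 to 1.498 CPM (log2 1.00, adjusted p = 0.0195). The cystine transporter Slc7a11 was called at 0.164 CPM against 0.0142 CPM in vehicle livers (adjusted p = 0.0281), where its fold is not meaningful. The count was 3 without liver 2 of the 30 µg/kg group, the liver with the highest Asns and Fgf21. Of 20 cytosolic aminoacyl-tRNA synthetases, another ATF4-responsive class, 3 were called higher (Vars 0.60, Yars 0.59 and Iars 0.54 on the log2 scale) and 0 lower, and 14 were higher without TMM. This count was 5 without liver 4 of the 30 µg/kg group or liver 4 of the vehicle group.

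Of 14 other ATF4 targets that regulate stress outcome, 3 were called higher and 2 lower (4 and 1 without TMM), with a median of -0.07. Over all genes 15.5% were called higher and 14.1% lower. Cdkn1a, the cell cycle inhibitor p21 that p53 also induces, rose from 0.996 to 13.3 CPM (log2 3.73, SE 0.83, adjusted p = 0.000553). Tnfrsf10b, a death receptor, rose from 0.178 to 1.36 CPM (log2 2.85, adjusted p = 1.94e-05), and Nupr1, a stress-induced chromatin protein, from 0.532 to 1.35 CPM (log2 1.32, adjusted p = 0.0186). Bbc3, the pro-apoptotic protein PUMA, fell from 7.31 to 3.09 CPM (log2 -1.25, adjusted p = 0.0071), and Vegfa was also lower (log2 -0.41).

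Among ER chaperones and folding enzymes, the class to which Hspa5 belongs, 10 of the 11 calls under TMM scaling were on the lower side. Of 19 other genes, 1 was called higher and 10 lower, with a median of -0.37, beside 14.1% of all genes called lower. Without TMM the counts were 3 higher and 4 lower with a median of -0.15, and 6 were lower without liver 5 of the 30 µg/kg group or liver 1 of the vehicle group. Hsp90b1, the ER form of HSP90, fell from 1188 to 768 CPM (log2 -0.63), and Pdia6 (log2 -0.73), Dnajc3 (-0.60), Pdia4 (-0.57) and Calr (-0.49) were lower as well. Fkbp11, a secretory pathway prolyl isomerase, rose from 5.90 ± 1.39 to 13.8 ± 1.98 CPM (log2 1.23, SE 0.22, adjusted p = 4.16e-05). Of 19 unfolded protein response sensors and ER-associated degradation genes, 1 was called higher and 3 lower (7 and 1 without TMM). Over all genes 15.5% were called higher and 14.1% lower. Derl1, of the channel that exports misfolded protein, was higher (log2 0.51, adjusted p = 8.71e-09), and Derl2 (-0.67) and the sensor Ern1 (-0.67) were lower.

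Mitochondrial stress and chaperone genes had 2 of 12 called higher and 0 lower, and 5 were higher without TMM. The 2 were the protease Lonp1 (log2 0.39) and the chaperone Trap1 (0.22). Their share was close to the 15.5% of all genes called higher, and 14.1% of all genes were called lower. Without liver 5 of the 30 µg/kg group 1 was higher, and 1 was called lower without liver 4 of that group or liver 5 of the vehicle group. Of 14 cytosolic heat shock genes 1 was called higher and 2 lower (3 and 1 without TMM). Hspb1 fell from 0.776 to 0.184 CPM (log2 -1.91) and Hspb8 by 0.79 on the log2 scale, while Hspa1a was called at 0.224 CPM against 0.0406 CPM (adjusted p = 0.0326), a call lost with liver 3 of the 30 µg/kg group or vehicle liver 2, 4 or 5 left out. The lower count was 1 with liver 2, 3 or 5 of the 30 µg/kg group or vehicle liver 1 or 3 left out. Of 5 tested genes for the receptors of FGF21 and GDF15, Fgfr3 was called higher (log2 0.79) and 0 lower (1 and 0 without TMM), and without liver 5 of the vehicle group 1 was called lower.

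**Figure D5:**
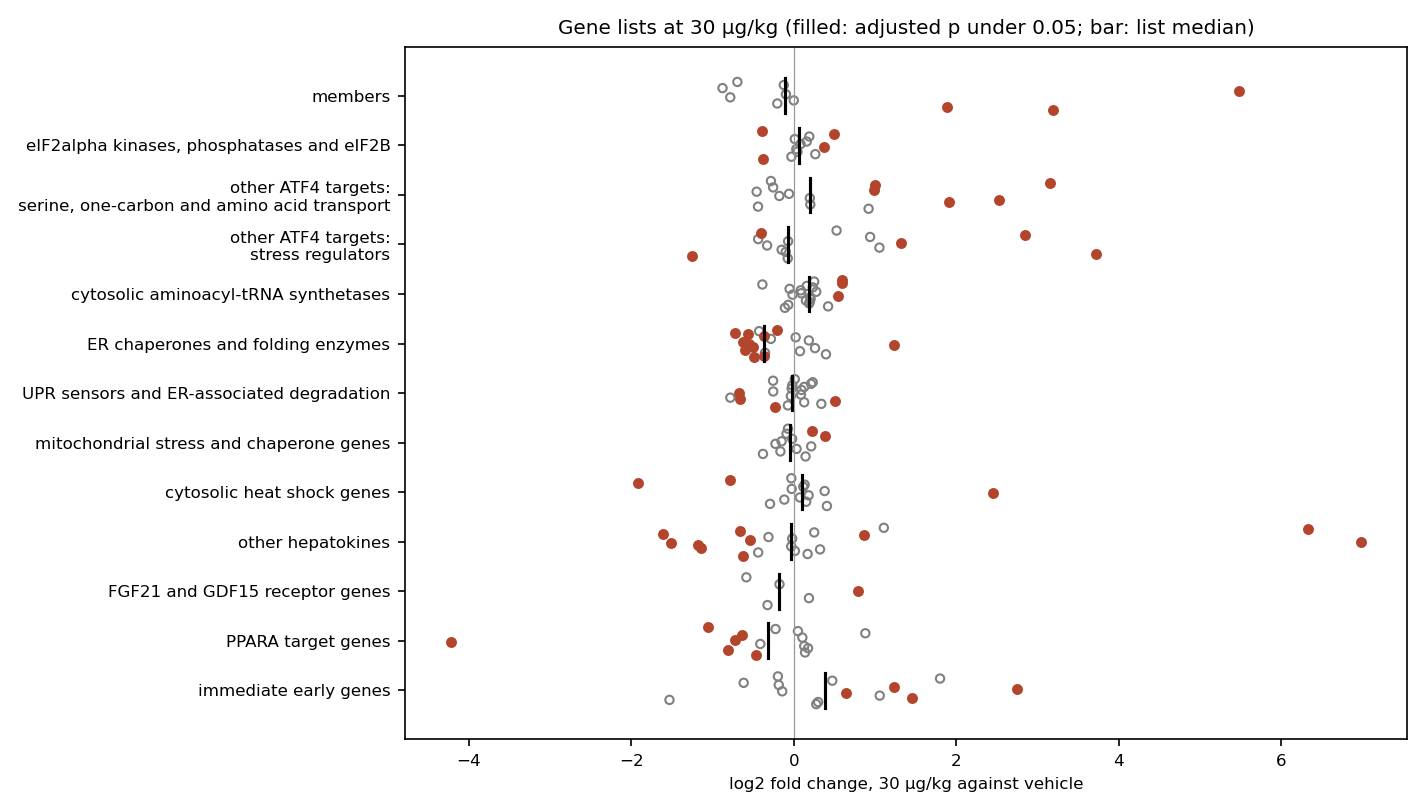
Log2 fold change at 30 µg/kg against vehicle of each gene of the pathway lists, 1 row of points per list (filled where the adjusted p was under 0.05, bar at the list's median, TMM scaling). The ER chaperone list has its median at -0.37 with 10 filled points below 0, and the serine, one-carbon and amino acid transport list has its median at 0.20 with 5 filled points above 0.

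For each member called over the 9 groups, the genes most like it were found as the 3 with the highest Pearson r of log2 CPM over the 45 livers, among 12412 genes with a mean of at least 1 CPM. This r includes the differences between doses and is a description. For Fgf21 they were Ecel1 (0.89), Parm1 (0.88) and Derl1 (0.87), and for Asns Cdh1 (0.69), Mta3 (0.68) and Fam83a (0.68). For Atf3 they were Mrc2 (0.80), Cdkn1a (0.77) and Lum (0.75), and for Gdf15 Pde9a (0.83), Mcu (0.82) and Cldn1 (0.81). No gene stood in more than 1 of these 4 sets, and no other member was among them.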

How the data were processed

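RNA-Seq libraries of 45 livers were sequenced as 50-base reads. Per the labels and methods, the authors aligned them to GRCm38 with Bowtie and TopHat 1.4.1 and counted unique alignments per Ensembl gene with HTSeq 0.6.1, and the raw count per gene was deposited without normalization. Alignments at more than 1 place made up 36.7 to 55.2% of all and were not counted, and reads in no gene were 9.11 to 17.1% of unique ones. No data column was left unused. The strand setting is not given in the sources used here. The study calls its 5 livers per group independent replicates.

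The counts were fitted with edgeR 4.0.16 in R 4.3.3 (TMM, 1 coefficient per group, 45 livers, genes with more than 4 reads in any liver, quasi-likelihood test, Benjamini-Hochberg adjustment within each comparison, adjusted p under 0.05). Standard errors are the log2 fold change over the square root of F. DESeq2 1.42.0 and limma 3.58.1 were alternatives, beside DESeq2's size factors, no TMM, other filters, smaller fits and each liver left out. Permutation tests used scipy 1.17.1 in Python 3.11.15, and figures matplotlib 3.10.9. The fit was tested on simulated counts. Positions are from GENCODE on GRCm38, a later annotation than that of the counting. Members and lists were chosen with earlier results of these data known. Genes of other lists were named where called with a fold change of at least 2 at 30 µg/kg, up to 4 per list, and others after their values were seen. Labels give no sequencing pools. Single values of some list genes are not reported here.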

Additional observations from a re-analysis of the deposited data

Results flagged for a closer look

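In each group of 5 livers a single liver far from the other 4 was looked for by Dixon's test (gap over range above 0.71), which chance passes in about 1 of 20 groups. It was passed in 9 of 90 groups, 8 times by a high liver, and in 9 different livers. Hspa5 accounted for 4 of the 9. Its outlying livers held 811.9 CPM in vehicle liver 1 (others 476 to 566), 724.1 CPM in liver 2 at 1 µg/kg (others 459 to 528), 1045 CPM in liver 5 at 3 µg/kg (others 517 to 618) and 695.6 CPM in liver 4 at 10 µg/kg (others 574 to 605). Atf3 was high in liver 5 at 0.01 µg/kg, at 2.46 CPM (others 0.701 to 1.10), the liver that also had the highest macrophage markers, and in liver 1 at 0.1 µg/kg, at 2.49 CPM (others 0.876 to 1.25). Atf4 was high in liver 1 at 0.3 µg/kg, at 103.4 CPM (others 72.7 to 81.1). Fgf21 was high in liver 5 at 0.1 µg/kg, at 1.57 CPM (others 0.175 to 0.533). Ddit3 was low in vehicle liver 4, at 2.35 CPM (others 5.73 to 7.03). None of these livers belonged to the 30 µg/kg group, in which Fgf21, Asns and Atf3 were called. The test was run on CPM and not on log2 values, and it did not flag liver 4 of that group. That liver was the lowest of its group for these 3 genes, with log2 residuals of -2.30 for Fgf21 and -1.61 for Atf3.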

How the results depend on the processing

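No paired analysis was run, because the labels do not say that livers of the same number in different groups belong together. The liver number, which some members followed, was not put in any fit. The calls of Fgf21, Asns and Atf3 at 30 µg/kg and of Fgf21 at 10 µg/kg held in every alternative run and with each liver left out. With only vehicle and the dose in the fit, 1 member was called at 1 µg/kg (Atf4), 1 at 3 µg/kg (Atf5) and 3 at 10 µg/kg, where Atf4 (log2 -0.27, adjusted p = 0.0458) and Chac1 (-0.73, adjusted p = 0.0272) joined Fgf21. At 10 µg/kg 2 were called without TMM and by DESeq2, with Asns added (log2 1.65 and 1.51), and 1 to 2 with a liver left out. From 10 to 30 µg/kg the leave-outs called 0 to 2 members, 0 without liver 2 at 30 µg/kg and 2, with Asns, without liver 1 at 10 µg/kg or liver 4 at 30 µg/kg. Without TMM the lists at 30 µg/kg gave 6 higher and 0 lower eIF2alpha genes, and 3 higher and 4 lower ER chaperones. Counts of higher and lower genes were 7 and 1 for sensors and degradation, and 3 and 1 for heat shock genes. Called higher were also 14 tRNA synthetases, 5 mitochondrial genes, 5 hepatokines and 1 gene of the PPARA list, and 1 stress regulator was called lower. With a liver left out the lowest and highest counts were 1 to 2 lower eIF2alpha genes, 3 to 6 higher serine and transport genes, 3 to 5 higher tRNA synthetases, 6 to 10 lower ER chaperones, 1 to 2 higher and 0 to 1 lower mitochondrial genes, 0 to 1 higher and 1 to 2 lower heat shock genes, 0 to 1 lower receptor genes, and 2 to 5 higher and 0 to 1 lower immediate early genes. The 10 pairs kept their sign with each liver left out. Asns, Fgf21, Atf3 and Gdf15 had few reads, which limits their precision most at low doses.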

Other observations

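Other secreted liver proteins changed in both directions at 30 µg/kg. Of 19 other hepatokines 3 were called higher and 7 lower (5 and 6 without TMM), beside 15.5% and 14.1% of all genes. Gpnmb, a glycoprotein also made by macrophages, rose from 0.134 to 17.8 CPM (log2 6.99, SE 0.61). Lect2 fell from 220.9 to 72.4 CPM (log2 -1.61, SE 0.14) and Fst, the activin-binding follistatin, from 2.07 to 0.723 CPM (log2 -1.51, SE 0.42).

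Fgf21 is a known target of the nuclear receptor PPARA. A list of 14 PPARA genes held the gene of the receptor itself beside its targets. Of these 0 were called higher and 6 lower at 30 µg/kg (1 and 6 without TMM), with a median of -0.32. Over all genes 15.5% were called higher and 14.1% lower. The part of PPARA in the rise of Fgf21 was not tested. Cyp4a14, a fatty acid omega-hydroxylase, fell from 976 to 52.0 CPM (log2 -4.23, SE 0.49), and Vnn1 from 74.7 to 36.03 CPM (log2 -1.05, SE 0.31). Atf3 is related to the immediate early genes by its quick induction. Of 14 such genes 4 were called higher and 0 lower (6 and 0 without TMM), beside 15.5% and 14.1% of all genes. Ier3 rose from 1.46 to 9.75 CPM (log2 2.74, SE 0.31), Jun from 6.55 to 15.5 CPM (log2 1.24, SE 0.32) and Fos from 0.540 to 1.47 CPM (log2 1.46, SE 0.51). Without liver 2 of the 30 µg/kg group or liver 4 of the vehicle group, 2 were called higher, and without liver 5 of the 30 µg/kg group 1 was called lower.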
